A study of Mus musculus with 12 samples.

Results

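A set of 9 complement genes was followed in whole kidney tissue of 12 mice with or without chronic kidney disease (CKD): the classical pathway genes C1qa, C1qb, C1qc and C4b, the central component C3, the alternative pathway protease factor B (Cfb), the inhibitor Serping1 and the anaphylatoxin receptors C3ar1 and C5ar1. These 9 genes were taken by name from the 22053 rows of the table of gene expression, each name matched 1 row, and all 9 were among the 13148 genes with expression high enough to be tested. All mice were C57BL/6, and each gave 1 RNA library. CKD was induced in 8 of them by a diet with 0.2% adenine, fed from 8 to 16 weeks of age. A diet with adenine leads to crystals in the kidney and injures the tubules, so the model is one of tubulointerstitial injury. The 4 CKD mice were injected i.p. with PBS each week, and the 4 CKD+Fe mice were instead given iron dextran i.p. each week at 0.5 g/kg. The 4 control mice ate the same diet without adenine and were given PBS. Mice are numbered 1 to 4 within each group by their order of deposition. The sources used here do not give the sex of the mice.

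Complement is a cascade of plasma and tissue proteins in which a recognition molecule, a series of proteases and an amplification loop lead to cleavage of C3 and C5. The classical pathway starts with C1q and runs through C4 and C2, whereas the alternative pathway amplifies C3 cleavage through factor B, and the released fragments C3a and C5a act on leukocytes through C3aR1 and C5aR1. The liver makes most circulating complement, macrophages are a main source of C1q, and kidney tubule cells are known to make C3 and factor B. The comparison of CKD with control mice asked how these transcripts differ in the injured kidney, and that of CKD+Fe with CKD mice asked how they differ with iron therapy.

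The sequence before the RefSeq start of 3 of the genes is shown because C1qb and C1qc are neighbours that moved together and C3 had the largest change of the 9 genes. The C1q genes lie side by side on mouse chromosome 4, all on the minus strand. In build GRCm38 C1qb (ENSMUSG00000036905) runs from 136880129 to 136886187, C1qc (ENSMUSG00000036896) from 136889804 to 136893065 and C1qa (ENSMUSG00000036887) from 136895917 to 136898803. They span 18675 bases in all, with 3616 bases between C1qb and C1qc and 2851 between C1qc and C1qa. C3 (ENSMUSG00000024164) lies on chromosome 17 from 57203970 to 57228136, also on the minus strand. Each line gives the 250 bases before the RefSeq transcript start (GRCm38.p6), 5′ to 3′ on the strand of the gene, from chr4:136886201-136886450 for C1qb, chr4:136892915-136893164 for C1qc and chr17:57228137-57228386 for C3. The C1qc window lies partly inside the C1qc gene as GENCODE places it, because the GENCODE start is further upstream than the RefSeq start used here. Capitals mark a match to a short motif.
C1qb: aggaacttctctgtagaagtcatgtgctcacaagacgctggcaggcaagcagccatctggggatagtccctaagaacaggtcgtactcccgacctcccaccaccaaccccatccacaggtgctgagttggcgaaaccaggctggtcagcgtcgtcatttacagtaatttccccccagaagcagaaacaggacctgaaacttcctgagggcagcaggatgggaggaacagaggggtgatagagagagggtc
C1qc: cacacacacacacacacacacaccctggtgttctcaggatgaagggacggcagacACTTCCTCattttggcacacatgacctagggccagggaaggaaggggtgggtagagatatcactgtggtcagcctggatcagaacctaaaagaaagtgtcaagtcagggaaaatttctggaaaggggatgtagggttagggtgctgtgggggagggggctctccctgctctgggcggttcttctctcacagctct
C3: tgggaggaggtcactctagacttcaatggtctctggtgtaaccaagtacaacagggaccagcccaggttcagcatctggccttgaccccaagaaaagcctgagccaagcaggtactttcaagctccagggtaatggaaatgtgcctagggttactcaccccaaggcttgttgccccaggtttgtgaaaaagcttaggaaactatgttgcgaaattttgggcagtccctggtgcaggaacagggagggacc
Motifs of 4 factors known to act in leukocytes and in inflammation were searched on both strands, namely GAGGAAGT (PU.1), GAAA repeated after 2 bases of any kind (IRF), TTCNNNGAA (STAT) and GGGA and TTCC with 2 bases of any kind between them (NF-kB). These letters occur in 2.44%, 2.98%, 7.02% and 1.21% of the 32851 windows of this length. The 1 match among the 5 genes with a window (C1qb, C1qc, C3ar1, C5ar1 and C3) was the PU.1 motif in C1qc, on the opposite strand, from 195 to 188 bases before the start. A match of letters is a description and does not show that a factor binds there.

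Expression was deposited by the authors as FPKM, the fragments assigned to a gene corrected for its transcript length and for the mapped reads of the library. Read depth is unknown, and precision therefore rests on the spread between mice. The summed FPKM ran from 503438 to 707843 across mice. Control mouse 3, CKD mouse 3 and CKD+Fe mouse 1 stood farthest from the rest of their groups, with 596, 806 and 442 of the tested genes at least 2-fold away, against 42 to 225 genes in the other mice. The tested genes as a whole leaned upward in CKD. The median log2 fold change of FPKM + 1 was 0.50 between CKD and control mice and became 0.01 when the mice were rescaled by the median-of-ratios method. Of 9 genes that define tubule segments and podocytes, 9 reached 1 FPKM in each group. In CKD mice 0 of them were higher and 4 lower, beside 54.6% and 13.3% of all genes tested.

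Complement transcripts rose steeply in CKD. Of the 9 genes, 8 were higher in CKD than in control mice, 0 were lower and 1, Cfb, passed the threshold in neither direction (adjusted p under 0.05, limma with Benjamini-Hochberg adjustment over all genes tested). Among all genes tested, 54.6% were called higher and 13.3% lower in the same comparison. The sizes of the differences were far from those of most genes. The median log2 fold change of the 9 genes was 3.41, against 0.50 for all genes tested, and the 8 genes held places 4 to 231 when all 13148 were ordered by their rise. For each of these 8 genes the lowest CKD mouse exceeded the highest control mouse, which was the case for 44.6% of the genes tested. With median-of-ratios rescaling the same 8 genes were called higher, with log2 fold changes between 2.12 and 5.50, while 28.8% of all genes were called higher and 29.3% lower. Without control mouse 3, CKD mouse 3 and CKD+Fe mouse 1 the counts were again 8 higher and 0 lower. Because the RNA came from whole tissue, more cells of a type and more RNA per cell cannot be told apart.

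**Figure D1:**
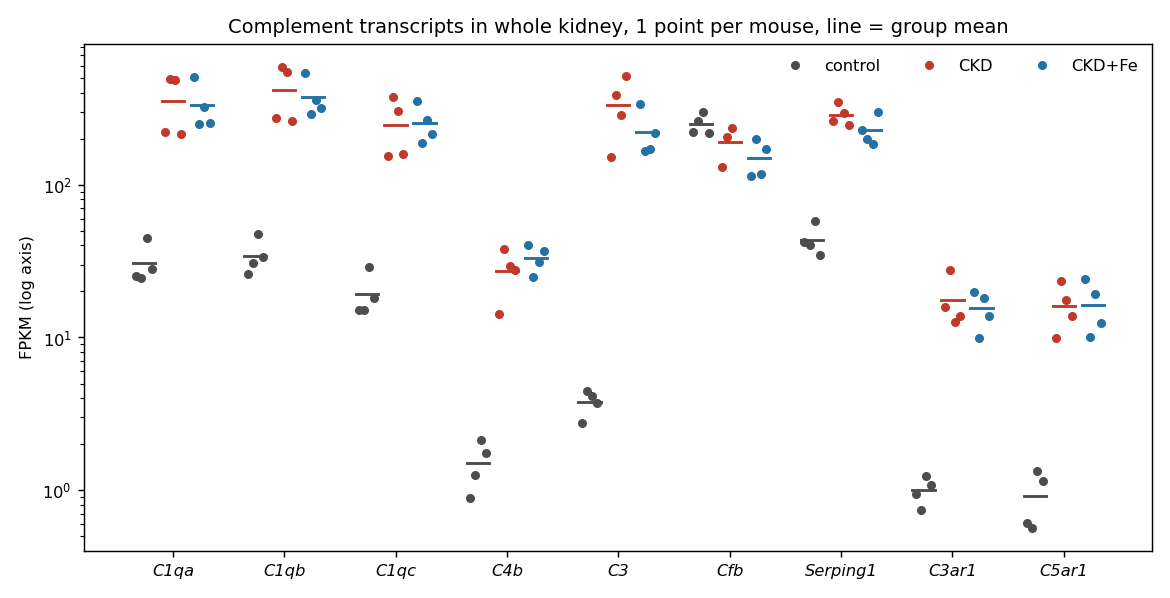
Expression of the 9 complement genes in FPKM on a log axis, with 1 point per mouse and a line at the group mean (4 mice per group, 3 for Cfb in CKD). The CKD and CKD+Fe mice lie above all control mice for 8 genes, whereas Cfb starts at 217 FPKM or more in control mice and is lower in all CKD+Fe mice.

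C3, the protein on which all pathways converge, showed the largest difference. Its expression was 2.77, 4.45, 4.15 and 3.73 FPKM in control mice and 150.5, 384, 284 and 514 FPKM in CKD mice. The groups were far apart, and the highest CKD value was in mouse 4 rather than in the mice with the highest C1q. Mean C3 expression was 3.78 ± 0.731 FPKM in control and 333 ± 154 FPKM in CKD mice (SD, n = 4 each), an 88.3-fold difference of means. The log2 fold change was 6.01 (SE 0.32, adjusted p = 2.94e-08, limma), the 4th largest rise of the 13148 genes. In CKD+Fe mice C3 was at 335, 167, 170.3 and 217 FPKM, again above every control mouse.

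The C1q genes encode the A, B and C chains of the molecule that starts the classical pathway. C1qa was at 25.3, 24.4, 44.5 and 27.9 FPKM in control mice and at 219, 491, 481 and 215 FPKM in CKD mice. In the CKD+Fe mice the values were 503, 250.3, 322 and 254 FPKM. CKD mice 2 and 3 and CKD+Fe mouse 1 were the high mice, and control mouse 3 was the high control. The same mice were high for the other chains. C1qb was at 25.9 to 47.2 FPKM in control mice, 259 to 587 in CKD mice and 289.7 to 536 in CKD+Fe mice, and C1qc was at 15.0 to 29.0, 154 to 372 and 186 to 351 FPKM. The log2 fold changes between CKD and control mice were 3.41 for C1qa (SE 0.32, adjusted p = 1.42e-06), 3.50 for C1qb (SE 0.29, adjusted p = 5.68e-07) and 3.55 for C1qc (SE 0.30, adjusted p = 7.73e-07, limma), or 11.5-, 12.1- and 12.8-fold in the means.

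The 3 chains assemble in equal numbers in the C1q protein, and their transcripts kept nearly constant proportions. C1qa was 0.886 times C1qb in control mice (range 0.799 to 0.978), 0.837 times in CKD mice (0.801 to 0.882) and 0.876 times in CKD+Fe mice (0.803 to 0.939), ranges that overlap. C1qc was 0.557 times C1qb in control mice (0.494 to 0.614), 0.591 times in CKD mice (0.559 to 0.633) and 0.677 times in CKD+Fe mice (0.642 to 0.739). The CKD+Fe mice thus lay above all other mice for this ratio, a small difference that was noticed in the values and given no test. None of the 50-base windows along the transcripts of the 3 genes occurs in a transcript of another gene in the annotation (0% for each chain).

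C4b encodes C4, which C1s cleaves in the classical pathway. It was at 0.892, 1.26, 2.15 and 1.75 FPKM in control mice, at 14.2, 37.7, 29.1 and 27.8 FPKM in CKD mice and at 40.2, 24.9, 31.4 and 36.5 FPKM in CKD+Fe mice. Control and CKD mice did not overlap, and CKD mouse 1 was the lowest of the 8 mice on adenine. The log2 fold change over control mice was 3.44 (SE 0.26, adjusted p = 2.77e-07, limma), with means of 1.51 ± 0.551 and 27.2 ± 9.73 FPKM (SD, n = 4 each). C4b (ENSMUSG00000073418, chromosome 17, 34728380 to 34743882) is 65209 bases from its near copy C4a, and 34.6% of the 50-base windows of its transcripts are also in transcripts of C4a. Reads from these stretches could not be assigned to 1 gene with certainty, so the level of C4b is uncertain to that extent.

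The genes that work beside C1q and C4 rose as well. C1ra and C1s1, which encode the C1r and C1s proteases, had log2 fold changes of 1.80 (adjusted p = 3.89e-07) and 2.55 (adjusted p = 6.59e-08, limma), with C1s1 at 7.01 ± 0.931 FPKM in control and 45.8 ± 5.01 FPKM in CKD mice (SD, n = 4 each). C2, which joins C4 in the C3 convertase, rose from 15.6 ± 4.10 FPKM (n = 4) to 36.8 ± 9.95 FPKM (n = 3, log2 fold change 1.19, adjusted p = 4.18e-04, limma). Among the lectin pathway genes, Mbl1, which encodes a mannose-binding lectin, fell by 0.88 on the log2 scale (adjusted p = 0.00458, limma). Masp1 and Colec12, from the same list, rose by 1.28 (adjusted p = 2.8e-04) and 2.52 (adjusted p = 1.8e-07, limma). Masp1 averaged only 0.141 FPKM in control mice. Of 15 genes listed for the classical and lectin pathways beside the C1q chains and C4b, 14 were in the table and 6 were tested. Of these 6, 5 were higher and 1 was lower in CKD mice, beside 54.6% and 13.3% of all genes tested.

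Factor B went the other way. Cfb, which provides the protease of the alternative pathway convertase, was at 221, 259.9, 301 and 217 FPKM in control mice. It was at 129, 204 and 233 FPKM in CKD mice 1 to 3, and the estimate for CKD mouse 4 had failed in the deposited table and was left out as missing. CKD and control mice overlapped, with CKD mouse 3 above 2 of the 4 control mice. The log2 fold change was -0.43 (SE 0.24, adjusted p = 0.128, limma), which did not pass the threshold, and the exact two-sided permutation test gave p = 0.143, with 0.0286 the smallest that 4 mice against 3 allow. The median of all genes lay at 0.50. Rescaled by the median-of-ratios method, its log2 fold change was -1.01 and passed (adjusted p = 0.00502, limma), and array quality weights gave -0.57 (adjusted p = 0.0333, limma). In CKD+Fe mice Cfb was at 114, 198, 117 and 172 FPKM, below every control mouse. Mean Cfb in CKD+Fe mice was 0.601 times that in control mice (log2 fold change -0.76, SE 0.22, adjusted p = 0.00978, limma). This call was lost under quantile normalization, with a log2 fold change of -0.45 (adjusted p = 0.0892, limma).

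Cfb (ENSMUSG00000090231) lies on chromosome 17 from 34856374 to 34862518, and C2 lies 85 bases away, from 34862604 to 34898265. The annotation also holds a gene that overlaps both, Gm20547 (34856412 to 34882042), whose transcripts contain 73% of the 50-base windows of Cfb and 38.7% of those of C2. The estimates of Cfb, C2 and Gm20547 failed together in CKD mouse 4. The shares of reads that the estimation gave to the overlapping gene could not be checked in FPKM. The ratio of C2 to Cfb was 0.0645 (range 0.0349 to 0.0855) in control mice, 0.198 in 3 CKD mice and 0.247 in CKD+Fe mice. The estimates for these adjacent genes thus did not move together, but the ratio depends on the same unchecked shares of reads.

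The order of the levels changed accordingly. FPKM are per length of transcript and allow levels of genes to be set side by side. The level of Cfb depends on how reads were shared with Gm20547, which could not be checked. In control mice Cfb was the highest of the 9 genes in 4 of 4 mice and made up 65.1% ± 3.07 (SD, n = 4) of their summed FPKM. Serping1, C1qb and C1qa followed with overlapping ranges, and C1qc overlapped C1qa, although Serping1 was above C1qb, C1qb above C1qa and C1qa above C1qc within each control mouse. C3 was below all of these in every control mouse, and C4b, C3ar1 and C5ar1 were lowest, with ranges that overlapped. In CKD mice C1qb was highest in mice 1 to 3 and C3 in mouse 4, and Cfb made up 9.79% ± 1.35 (SD, n = 3) of the sum. C1qb, C1qa, C3, Serping1, C1qc and Cfb each overlapped the next in range across CKD mice. Within a mouse some were ordered the same way throughout, with C1qb above C1qa and C1qa above C1qc in 4 of 4 CKD mice and Serping1 above Cfb in all 3 with a value. C4b was below all of these and overlapped both receptors. C1qb was the highest gene in 4 of 4 CKD+Fe mice, where Cfb made up 9.81% ± 4.13 (SD, n = 4) and C4b lay above both receptors without overlap. The ratio of C3 to Cfb was 0.0152 in control, 1.42 in CKD (n = 3) and 1.63 in CKD+Fe mice.

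Serping1 encodes C1 inhibitor, which blocks C1r and C1s. It was at 42.1, 40.4, 57.7 and 34.7 FPKM in control mice, at 259.6, 345, 292 and 244 FPKM in CKD mice and at 226, 198, 184 and 297 FPKM in CKD+Fe mice. The CKD mice were closely grouped and far above the control mice, whereas CKD+Fe mouse 4 was within the CKD range and the other 3 were below it. The log2 fold change over control mice was 2.69 (SE 0.19, adjusted p = 1.33e-07, limma), a 6.52-fold difference of means. Serping1 (ENSMUSG00000023224) is on chromosome 2 from 84765387 to 84775444, and none of its 50-base windows is shared (0%). Its targets stood in different proportions to it. C1s1 was at 0.166 times Serping1 in control mice, 0.163 times in CKD mice and 0.171 times with iron, whereas C1ra was at 0.0927 times in control mice (range 0.0734 to 0.118) and 0.0573 times in CKD mice (0.0529 to 0.0617), with no overlap, and at 0.0629 times with iron.

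C3ar1 and C5ar1 encode the receptors for C3a and C5a. C3ar1 was at 0.952, 0.739, 1.24 and 1.08 FPKM in control mice and at 15.9, 27.7, 12.7 and 13.9 FPKM in CKD mice. C5ar1 was at 0.616, 0.569, 1.34 and 1.15 FPKM in control mice and at 9.88, 23.4, 17.6 and 13.8 FPKM in CKD mice. Both receptors were near 1 FPKM in healthy kidney, and CKD mouse 2 was the highest of its group for each. The log2 fold changes were 3.15 for C3ar1 (SE 0.24, adjusted p = 3.09e-07) and 3.12 for C5ar1 (SE 0.28, adjusted p = 1.16e-06, limma). On this scale the added 1 FPKM understates the change of low genes, and the means differed 17.5-fold for C3ar1 and 17.6-fold for C5ar1. In CKD+Fe mice C3ar1 was at 9.99 to 19.9 FPKM and C5ar1 at 10.0 to 23.9 FPKM, above every control mouse. C3ar1 (ENSMUSG00000040552) lies on chromosome 6 from 122847138 to 122856161 and C5ar1 (ENSMUSG00000049130) on chromosome 7 from 16246743 to 16259540.

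Iron therapy was not accompanied by a detected difference in any of the 9 genes. In CKD+Fe against CKD mice 0 of the 9 were called higher or lower by limma, 0 had an unadjusted p under 0.05, and for 0 of them did the groups separate. Among all genes tested, 0.00761% were called higher and 0% lower, 6.01% had an unadjusted p under 0.05, and 1.35% and 1.09% were separated upward and downward, so few genes of any kind stood out. The median log2 fold change of the 9 genes was -0.09. The largest shift was that of C3, from 333 ± 154 to 222 ± 78.7 FPKM (SD, n = 4 each), with a log2 fold change of -0.51 (95% interval -1.19 to 0.18, adjusted p = 0.916, limma). Serping1 had a log2 fold change of -0.34 (-0.74 to 0.06, adjusted p = 0.882) and C4b one of 0.34 (-0.22 to 0.90, adjusted p = 0.958, limma). The C1q chains lay between -0.09 and 0.10, with intervals from -0.71 to 0.76. C3ar1 was at -0.15 (-0.67 to 0.37), C5ar1 at 0.01 (-0.60 to 0.61) and Cfb, with 3 CKD mice, at -0.33 (-0.85 to 0.20). The intervals do not exclude a fall of C3 to 0.438 times or a rise of C4b to 1.86 times the CKD level on the scale of FPKM + 1, so equal expression was not shown.

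**Figure D2:**
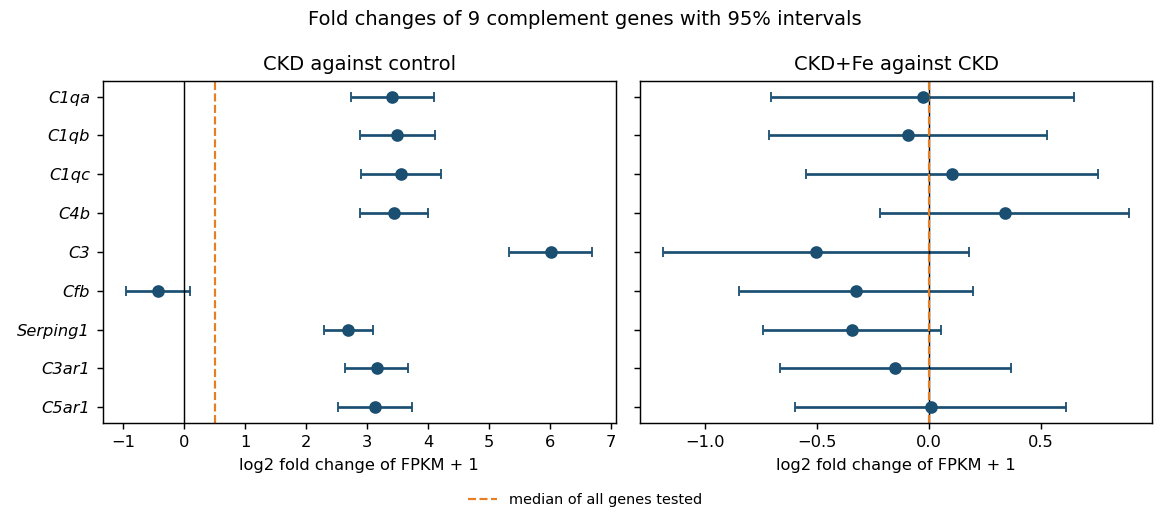
Log2 fold change of FPKM + 1 for the 9 complement genes in CKD against control mice (left) and CKD+Fe against CKD mice (right), with 95% intervals from limma as bars and a dashed line at the median of all genes tested. On the left 8 intervals lie above 2 and that of Cfb spans 0, and on the right all 9 span 0.

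Compared with control mice, CKD+Fe mice had 8 of the 9 genes higher and 1, Cfb, lower, where 54.4% of all genes were called higher and 11% lower. With the median-of-ratios method the counts were again 8 and 1, against 27.7% and 27.5% of all genes. The groups did not overlap for any of the 9, with 50.4% of all genes separated upward and 9.85% downward. Log2 fold changes were 5.50 for C3, 3.77 for C4b, 3.38, 3.40 and 3.65 for C1qa, C1qb and C1qc, 2.35 for Serping1, 3.00 for C3ar1 and 3.13 for C5ar1 (adjusted p = 1.13e-07 for C3, limma). C3 was 58.9-fold and C4b 22.0-fold higher in the means. The control mice are the same as in the comparison of CKD with control mice, so the 2 comparisons are not independent.

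Macrophage transcripts moved with the C1q chains and the receptors. Of 12 macrophage genes listed, 12 were tested and 11 were higher in CKD than in control mice, beside 54.6% of all genes tested. The 12 log2 fold changes ran from 0.54 to 4.81 with a median of 2.97. The summed level of the 12 genes was 123 to 245 FPKM in control mice, 1830 to 3600 in CKD mice and 1570 to 3690 in CKD+Fe mice. Between CKD+Fe and CKD 0 were called by limma, beside 0.00761% higher and 0% lower of all genes tested. CKD mouse 2 and CKD+Fe mouse 1, the highest of their groups for C1qb, also had the highest macrophage sums. Relative to Adgre1, which encodes the macrophage marker F4/80, C1qa was at 15.5 in control (range 7.88 to 25.8), 13.2 in CKD (7.64 to 19.8) and 14.5 in CKD+Fe mice (12 to 18.9). These ranges overlap, as did those of the other chains and of both receptors relative to Adgre1. Relative to Csf1r, which encodes the receptor for a macrophage growth factor, C1qa was at 1.64 in control (1.33 to 2.18), 5.44 in CKD (3.86 to 6.96) and 5.47 in CKD+Fe mice (4.52 to 6.92). Control mice lay below all CKD mice for each of the 5 ratios to Csf1r, so the proportion depended on the reference gene. The part of macrophage number in these differences was not tested.

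**Figure D3:**
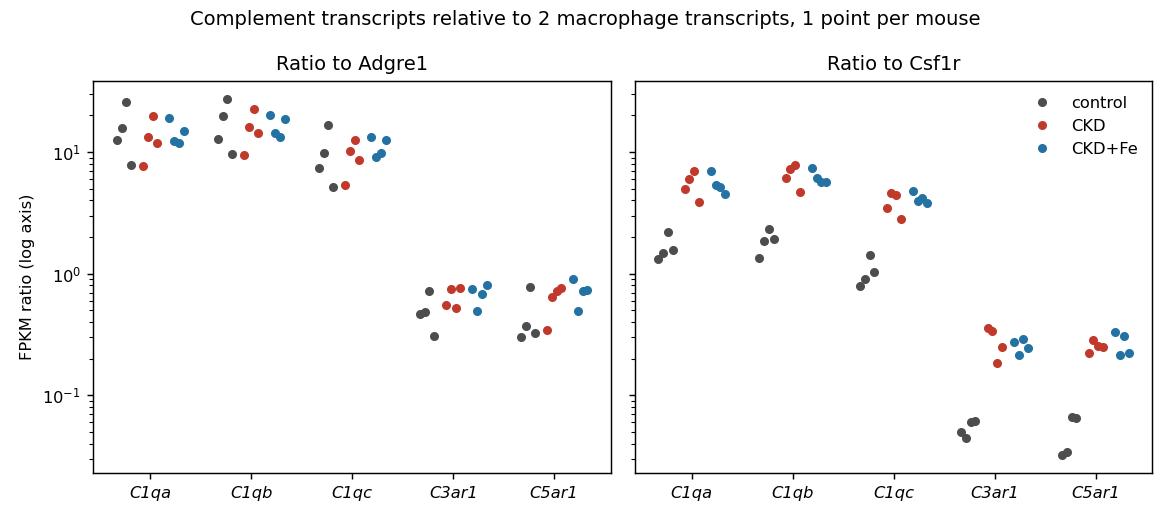
FPKM of C1qa, C1qb, C1qc, C3ar1 and C5ar1 divided by that of Adgre1 (left) or Csf1r (right) in the same mouse, on a log axis with 1 point per mouse. The groups overlap in the ratios to Adgre1, whereas the control mice lie apart, and lower, in the ratios to Csf1r.

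Relative to the same marker, C3 was at 1.93 in control mice (range 1.06 to 2.89), 13.9 in CKD (5.24 to 28.3) and 9.98 in CKD+Fe mice (6.33 to 12.7), so the control mice lay apart. C4b was at 0.75 times Adgre1 in control (0.439 to 1.25), 1.06 in CKD (0.493 to 1.53) and 1.51 in CKD+Fe mice (1.17 to 2.14), ranges that overlap. Fibroblast genes also moved, with 8 of 8 higher in CKD mice and summed levels of 65.9 to 91.3 FPKM in control mice, 429 to 816 in CKD mice and 347 to 487 in CKD+Fe mice. Of 10 neutrophil genes 5 were tested and 5 were higher, with sums of 1.82 to 6.68, 61.1 to 232 and 52.2 to 147 FPKM, although Ngp, Camp, Elane and Mpo were under 1 FPKM in every mouse. T and B cell genes were higher for 5 of 6 tested, or for 2 with the median-of-ratios method, with sums of 4.25 to 9.04, 6.98 to 28.7 and 19.2 to 33.5 FPKM. Endothelial genes were higher for 0 and lower for 1 of 7, or lower for 5 with the median-of-ratios method, with sums of 105 to 201, 95.8 to 128 and 95.2 to 158 FPKM. Of 10 hepatocyte genes 8 were expressed enough to be tested, and 3 were higher and 4 lower, with sums of 1310 to 1620, 353 to 768 and 274 to 1150 FPKM. Most of the sum was Cyp2e1 and Ttr, at means of 966 and 466 FPKM in control mice, where the sum averaged 1510. Higher were Fgb, Fgg and Serpina1a, 23-, 28.9- and 4.95-fold in the means, and lower were Alb, Apoa2, Apob and Cyp2e1. The liver-defining genes Ahsg and Cps1 were under 1 FPKM in every control and CKD mouse. Beside these counts, 54.6% of all genes tested were called higher and 13.3% lower, or 28.8% and 29.3% with the median-of-ratios method. The part of these cell types in the complement values was not tested.

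The genes whose profiles over the mice were nearest to those of the complement genes differed by member. Nearness was the root mean square difference of log2(FPKM + 1), each gene centred on its own mean, and over 12 mice in 3 groups it mainly reflects the size of the difference between adenine-fed and control mice. For C1qa, C1qb and C1qc the nearest gene outside the 9 was Tyrobp, which encodes a signalling adaptor of myeloid cells, at 0.182, 0.179 and 0.155. Next came Fcer1g (0.234) and Cd300c2 (0.263) for C1qa, Cd300c2 (0.25) and Cfp (0.254) for C1qb, and Mrc1 (0.281) and Ms4a7 (0.283) for C1qc. C5ar1 was nearest to Cd300c2 (0.157), Itgb2 (0.205) and Abcc3 (0.221), and C3ar1 to Muc4 (0.173), Clec4a2 (0.179) and Casp4 (0.188). Serping1 was nearest to Fstl1 (0.202), Mxra8 (0.230) and Sulf1 (0.231), genes known from connective tissue cells. C4b was nearest to Wfdc17 (0.276), Fcgr3 (0.289) and Clcf1 (0.290). C3 had no close neighbour, as its 3 nearest genes, Cxcl5, Mmp7 and Timp1, were at 0.543 to 0.564. Cfb was nearest to Smim22 (0.176), Mia (0.235) and Fars2 (0.241) over 11 mice. Among the 9 genes only, the nearest to Cfb was Serping1, at 1.539. Its distances to the further complement genes are not given here.

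The rest of the cascade rose in part. Of 52 further complement genes listed, 50 were in the table and 30 were tested. In CKD against control mice 21 were higher, 5 were lower and 4 passed in neither direction, with a median log2 fold change of 1.41 against 0.50 for all genes tested. The shares called among all genes tested were 54.6% higher and 13.3% lower. With the median-of-ratios method 20 were higher and 7 lower, against 28.8% and 29.3% of all genes, as Cr1l, which encodes a mouse regulator of C3 activation, lost its call (0.32 as deposited, -0.25 rescaled) and Cd59b and Calr became lower. In the alternative pathway Cfp, which encodes the convertase stabiliser properdin, rose from 1.52 ± 0.463 to 21.2 ± 9.74 FPKM (SD, n = 4 each, log2 fold change 3.04, adjusted p = 9.49e-07, limma).

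The terminal pathway, whose proteins form the membrane attack complex, split in 2 directions. C6 and C7 were higher in CKD mice, with log2 fold changes of 2.18 (adjusted p = 4.86e-07) and 2.32 (adjusted p = 8.03e-05, limma). C8a and C8g, which encode chains of C8, were lower, with C8a falling from 10.8 ± 2.97 to 0.697 ± 0.616 FPKM and C8g from 24.8 ± 5.67 to 6.94 ± 2.49 FPKM (SD, n = 4 each). Their log2 fold changes were -2.84 and -1.73 (adjusted p = 4.2e-06 and 4.1e-05, limma). Hc, which encodes C5, the source of the ligand of C5aR1, averaged 0.00546 FPKM in control mice, 0.276 in CKD mice and 0.264 in CKD+Fe mice and was too low to be tested.

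Regulators were taken as soluble and membrane-bound ones. Among soluble regulators 4 of 5 tested were higher, beside 54.6% of all genes tested. Cfi, which encodes the protease that cleaves C3b, went from 2.18 ± 0.336 to 43.0 ± 11.2 FPKM (log2 fold change 3.76, adjusted p = 1.87e-08), and Clu, which encodes clusterin, from 152 ± 8.89 to 1910 ± 608 FPKM (3.59, adjusted p = 9.28e-08, limma; SD, n = 4 each). Among the genes listed as membrane regulators 3 of 7 tested were higher and 2 lower, beside 54.6% and 13.3% of all genes. The 2 lower genes were Cd55 and C1qbp, the latter with a log2 fold change of -0.84 (adjusted p = 0.0011, limma). Cd55, which encodes a protein that breaks up C3 convertases on cells, fell from 9.22 ± 0.400 to 4.25 ± 1.57 FPKM (0.460 times in the means, adjusted p = 0.00225, limma). Cd46 was called higher at 0.79 (adjusted p = 0.0116, limma) from a mean of 0.336 FPKM, and that call was lost under quantile normalization (0.05). Cd59a, which encodes an inhibitor of the membrane attack complex, had a log2 fold change of 0.28 (adjusted p = 0.162, limma).

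Among complement receptors 6 of 7 tested were higher, beside 54.6% of all genes tested. Itgam and Itgb2, which encode the chains of complement receptor 3 on leukocytes, had log2 fold changes of 3.54 (adjusted p = 1.63e-07) and 3.01 (adjusted p = 1.28e-06, limma). C5ar2, the other receptor for C5a, rose from 0.118 ± 0.0666 to 2.14 ± 0.685 FPKM (SD, n = 4 each, 1.47, adjusted p = 2.19e-05, limma), and Cd93 rose from 3.44 to 10.3 FPKM. Vsig4, a complement receptor of resident macrophages of other organs, averaged 0 FPKM in control mice, 0.0412 in CKD mice and 0.179 in CKD+Fe mice and was not tested.

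None of the 30 further genes was called between CKD+Fe and CKD mice by limma, while 6 had an unadjusted p under 0.05 and 3 were separated downward and 0 upward. Among all genes tested, 0.00761% were called higher and 0% lower. The shares with an unadjusted p under 0.05, separated downward and separated upward were 6.01%, 1.09% and 1.35%. Cfi came nearest to a call. It was at 32.0, 34.9, 52.1 and 53.2 FPKM in CKD mice and at 17.2, 24.3, 19.1 and 21.2 FPKM in CKD+Fe mice, so that every CKD+Fe mouse was below every CKD mouse. Its log2 fold change was -1.01 (unadjusted p = 6.5e-05, adjusted p = 0.143, limma), and across 21 alternatives the adjusted p ran from 0.0206 to 0.711 with a call in 1, array quality weights. Also with an unadjusted p under 0.05 were C6 (-0.43), C7 (-0.77), Clu (-0.54) and C8a (0.73), all with an adjusted p of 0.782 or more by limma.

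**Figure D4:**
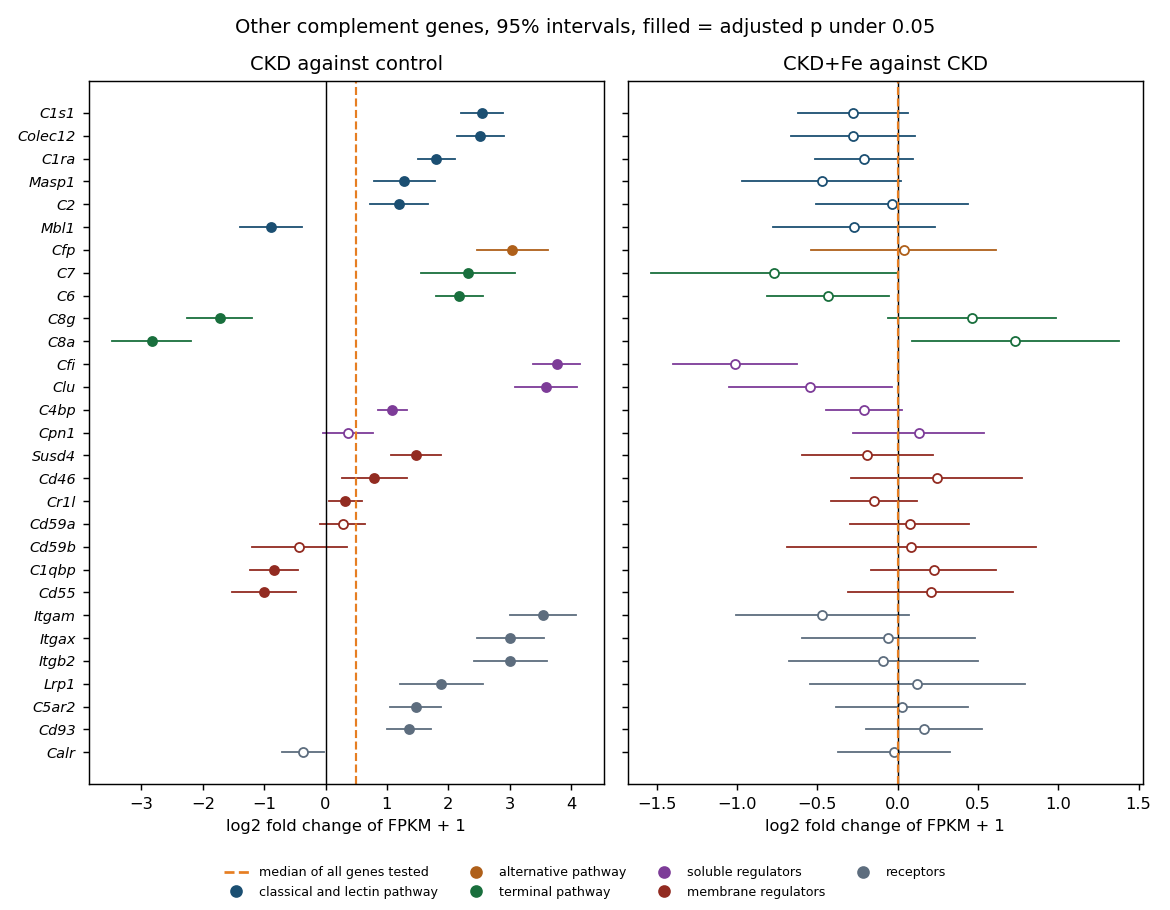
Log2 fold change of FPKM + 1 for 29 of the further complement genes in CKD against control mice (left) and CKD+Fe against CKD mice (right), coloured by list, with 95% intervals from limma as lines, filled points for an adjusted p under 0.05 and a dashed line at the median of all genes tested. On the left 25 points are filled and on the right 0, where Cfi lies farthest from 0 at -1.01.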

How the data were processed

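Whole kidney RNA of 12 mice was sequenced from stranded mRNA libraries with single-end reads of 50 cycles on a HiSeq4000. The submitters' processing notes name bcl2fastq 2.19, STAR 2.5.2, Cufflinks 2.1.1 and GRCm38, and the annotation release is not given in the sources used here. The authors deposited FPKM per gene and mouse, which are not counts, so no count test was run. In 17 genes 30 values carry a failed status and were treated as missing. Positions were matched to GENCODE M21.

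All 12 mice entered 1 limma fit of log2(FPKM + 1) with a variance trend (version 3.58.1, R 4.3.3), tested on simulated data. A gene was tested if 4 or more mice reached 1 FPKM, which left 13148. P values are two-sided, and Benjamini-Hochberg adjustment over these genes used a threshold of 0.05. A fold of means is a ratio of mean FPKM. The exact permutation test of log2(FPKM + 1) cannot give less than 0.0286 for 4 mice against 4, and the 8 genes that rose in CKD all reached it. The labels name no batch, and the mice of a group were taken as separate animals.

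The 9 genes, 52 further complement genes and cell type lists were chosen with earlier results of these data known, and the adipocyte list after the values were seen. Named were the 9 genes, a preset part of the further genes with the 3 largest rises and falls, and 3 nearest profiles per gene. Mbl1, Masp1, Colec12, Cd59b, Calr and C1qbp were named after their values were seen. Of the further genes 1 tested gene is counted but not reported here. C4a and 1 other were not matched, and of 2 rows with 1 symbol the higher was used. Alternatives were a pseudocount of 0.1, no filter, a mean of at least 5 FPKM, median-of-ratios or quantile scaling, a fit of only the groups compared, array quality weights, no variance trend, leaving out each mouse and, chosen after seeing the data, leaving out the farthest mouse of each group.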

Additional observations from a re-analysis of the deposited data

Results flagged for a closer look

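Among 92 groups of 4 mice examined for the complement genes, 7 held a mouse set apart from the other 3 by Dixon's criterion, which chance gives in about 1 of 20 groups. C1qa was 44.5 FPKM in control mouse 3, against 24.4 to 27.9 in the other control mice. In the same mouse C6 was 0.056 FPKM, against 0.156 to 0.171, Cd59a was 47.5 FPKM, against 26.9 to 30.1, and Hc was listed at 0, against 0.0066 to 0.00792 FPKM. Cd55 was 6.58 FPKM in CKD mouse 1, against 3.25 to 3.76 in the other CKD mice.

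Cfd, which encodes factor D, the protease that activates factor B and a known product of fat cells, was 10.2 FPKM in control mouse 2, against 0.0949 to 0.823, and 96.2 FPKM in CKD+Fe mouse 4, against 0.0544 to 10.5. Adipoq, a fat cell gene, was highest in the same mice, at 1.28 FPKM in control mouse 2 and 11.3 FPKM in CKD+Fe mouse 4. Of the 5 adipocyte genes, chosen after these values were seen, the summed level was 49.3 to 120 FPKM in control, 31 to 71 in CKD and 54.2 to 112 in CKD+Fe mice, and Plin1 and Lep were under 1 FPKM in every mouse. In control mouse 2 this summed level was 66.8 FPKM, below control mice 1 (85.4) and 3 (120). In CKD+Fe mouse 4 it was 112 FPKM, the highest of its group. Most of the sum was Fabp4, which averaged 79.1 FPKM in control mice, where the sum averaged 80.4. The part of adhering fat was not tested.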

How the results depend on the processing

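In both comparisons with control mice 8 of the 9 genes were called higher under all 21 alternatives, and between CKD+Fe and CKD mice 0 of the 9 were called under any. Of 567 alternative values for the 27 fold changes of the 9 genes, 545 kept their direction and their side of the threshold, and 19 changed sign. The number of further complement genes called higher ran from 16 to 25 in CKD (21 as reported) and from 16 to 26 in CKD+Fe against control mice (21). The number of members lower in CKD was 1 (Cfb) in place of 0 under median-of-ratios rescaling and under array quality weights, and in CKD+Fe against control it was 0 in place of 1 under quantile normalization. Among the further complement genes, those lower in CKD numbered 3 in place of 5 where a mean of 5 FPKM was required, since fewer genes were then tested, and those lower in CKD+Fe than in CKD numbered 1 in place of 0 (Cfi) under array quality weights. The cause was not tested in the other cases. All changes of sign were in fold changes near 0 in CKD+Fe against CKD mice that passed under no alternative. Array quality weights gave 0.138 for C1qa and 0.069 for C1qb, and leaving out the mouse farthest from its group in each group gave -0.13 for C5ar1. With each mouse left out, the log2 fold change ran from -0.25 to 0.17 for C1qa, from -0.29 to 0.11 for C1qb, from -0.086 to 0.336 for C1qc, from -0.28 to 0.082 for C3ar1 and from -0.19 to 0.20 for C5ar1. No paired analysis was possible because the groups share no animal or batch number. The unknown read depth limits genes near or under 1 FPKM.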
